A study of Mus musculus with 6 samples.

Results

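Iron uptake, storage and export were examined through 10 genes, namely Tfrc, Steap3 and Slc11a2 (uptake), Fth1, Ftl1 and Ncoa4 (storage and release), Slc40a1 (export), Hmox1 (recovery from heme) and Aco1 and Ireb2 (the iron regulatory proteins). They were chosen by name from the 28154 genes of the deposited table, where each has 1 row, and all 10 had enough counts to be tested. The cells were 4T1, a mouse mammary carcinoma line, and RNA sequencing was done on 3 control libraries and 3 libraries of corticosterone-treated cells. Corticosterone is the main glucocorticoid of rodents. Neither dose nor duration of treatment is given in the labels. They also do not say whether each library had a culture of its own, so a p-value covers the spread among these samples, which may be technical.

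Cells take up iron mainly as transferrin bound to the transferrin receptor. In the endosome a reductase converts it to the ferrous form, and a divalent metal transporter moves it into the cytosol. There it is used, stored in ferritin shells built of heavy and light chains, or exported by ferroportin. The 2 iron regulatory proteins bind a hairpin, the iron-responsive element, when iron is low: in the 5′ untranslated region this blocks translation, and in the 3′ untranslated region it stabilises the message. RNA levels therefore report only a part of this control, since binding in the 5′ untranslated region acts on translation.

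The hairpins are shown because they are the sequences through which the regulatory proteins act on ferritin, ferroportin and transferrin receptor messages. The protein-coding transcripts of the 10 genes in GENCODE release M21 (GRCm38) were searched on the sense strand for CNNNNNCAGTGN followed by 5 bases that pair with the 5 bases before the loop (Watson-Crick or G with T). The 5′ untranslated regions of Fth1, Ftl1 and Slc40a1 each held 1 match, and the 3′ untranslated region of Tfrc held 4. Over all protein-coding transcripts of GENCODE M21, 0.148% of genes with a 5′ untranslated region and 0.594% of genes with a 3′ untranslated region held a match there. The other 6 genes held none, which says only that this pattern with its paired bases is not in their annotated protein-coding transcripts. Hairpins with an unpaired base in this part of the stem were not searched for, so an element of that kind would be missed. The sequences run 5′ to 3′ on the message strand, with the loop in capitals.
Fth1, 5′ untranslated region, chr19:9982732-9982760, plus strand: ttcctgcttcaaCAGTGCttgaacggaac
Ftl1, 5′ untranslated region, chr7:45459779-45459807, minus strand: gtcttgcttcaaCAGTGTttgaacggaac
Slc40a1, 5′ untranslated region, chr1:45925465-45925493, minus strand: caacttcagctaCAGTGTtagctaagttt
Tfrc, 3′ untranslated region, chr16:32631219-32631247, plus strand: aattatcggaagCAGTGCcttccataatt
Tfrc, 3′ untranslated region, chr16:32631598-32631626, plus strand: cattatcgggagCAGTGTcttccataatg
Tfrc, 3′ untranslated region, chr16:32631663-32631691, plus strand: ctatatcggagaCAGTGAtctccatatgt
Tfrc, 3′ untranslated region, chr16:32631710-32631738, plus strand: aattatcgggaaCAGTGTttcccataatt
The elements of the 2 ferritin chains have the same 5 bases on each side of the loop, while those of Slc40a1 differ.

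Library totals lay between 62.2 and 66.2 M counts. Of 17283 tested genes, 487 (2.82%) passed an adjusted p under 0.05 in edgeR's quasi-likelihood test with Benjamini-Hochberg adjustment. Without corticosterone replicate 2, the library whose removal moved the calls most, 3670 of 17862 (20.5%) passed. Since that library was picked by this effect, calls without it are given below as a description only. The epithelial markers Epcam, Krt8, Krt18, Krt14 and Cdh1 summed to 2903 to 3009 CPM in controls and 2692 to 3164 CPM with corticosterone. The erythroid markers in the table (Hba-a1, Epor, Gata1 and Slc4a1) summed to at most 0.589 CPM in any library. The 5 fibroblast markers summed to 57.2 to 68.9 CPM in controls and 64.6 to 70.2 CPM with corticosterone. Throughout, CPM are counts relative to the TMM-scaled library size, and fewer cells of a kind and less RNA per cell cannot be told apart in such bulk samples.

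With corticosterone, the message of ferroportin, the only known iron exporter of mammalian cells, fell to 0.633 of its control level, and that of the endosomal ferrireductase Steap3 rose 1.31-fold. These were the 2 of 10 genes that passed, 1 lower and 1 higher, against 2.82% of all tested genes. Hmox1 (heme oxygenase 1) and Fth1 (ferritin heavy chain) were higher in every treated library than in any control but missed the threshold, with adjusted p of 0.0579 and 0.0771 (edgeR quasi-likelihood). Groups did not overlap for 5 of the 10 genes, against 22.2% of all tested genes: 4 were higher (10.6% of all) and 1 was lower (11.6% of all). An unadjusted p under 0.05 was reached by 6 of the 10, against 17.0% of all tested genes. The median log2 fold change of the 10 was 0.18, with 7 above 0 and 3 below, against 9.62e-05 over all tested genes. The 10 were chosen with earlier results of these data known, so such comparisons with all genes are no test of the set.

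**Figure D1:**
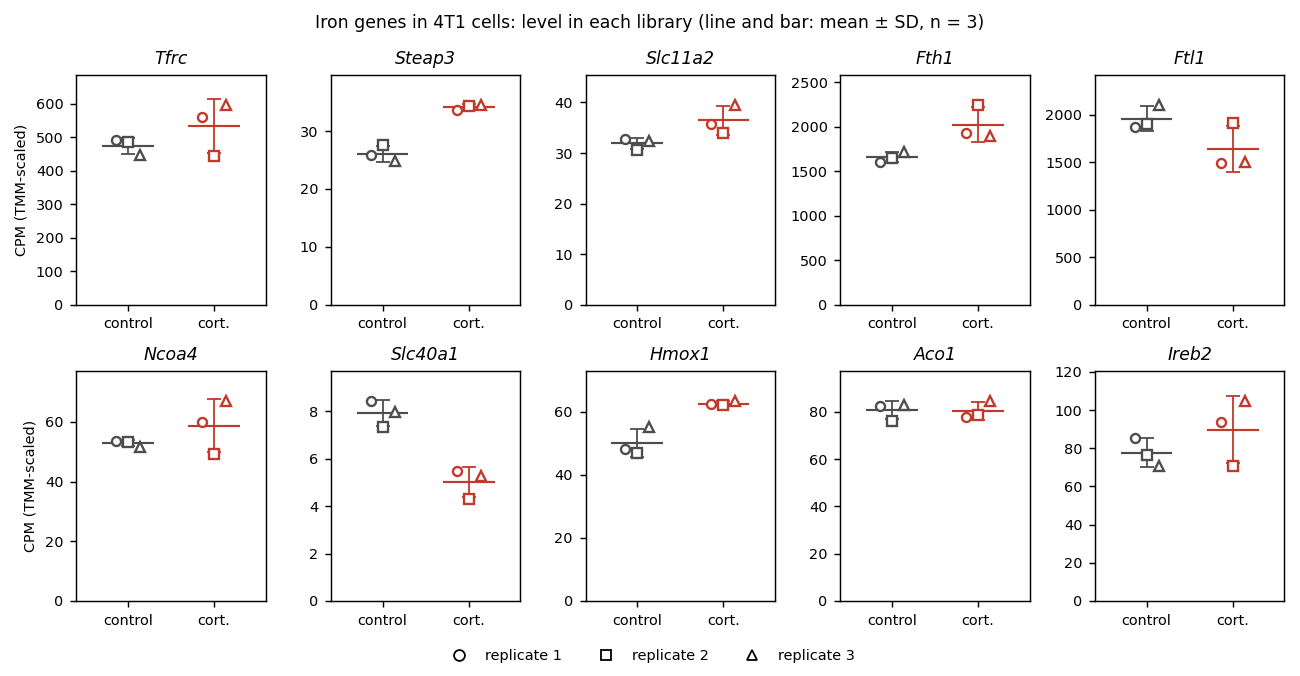
Level of each of the 10 iron genes (CPM, linear axis from 0) in the 3 control and 3 corticosterone libraries, with points shaped by replicate number and the mean ± SD per group (n = 3). Slc40a1 lies between 7.35 and 8.44 CPM in controls and between 4.31 and 5.49 CPM with corticosterone, while for Tfrc, Ncoa4, Ireb2 and Ftl1 the treated replicates 1 and 3 lie outside the control range on one side and replicate 2 lies within it (Ireb2 and Ftl1) or beyond its other end (Tfrc and Ncoa4).

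Tfrc encodes the transferrin receptor, which carries transferrin-bound iron into the endosome (chromosome 16, 32608920 to 32632794, GRCm38). It stood at 493, 485 and 447 CPM in control replicates 1, 2 and 3 and at 561, 444 and 598 CPM in corticosterone replicates 1, 2 and 3. Treated replicates 1 and 3 were above every control, treated replicate 2 was below every control, and so the groups overlapped. Its mean went from 475 ± 24.5 to 534 ± 80.5 CPM (SD, n = 3). On the log2 scale this was 0.17 (95% interval -0.07 to 0.41), which did not pass (edgeR quasi-likelihood, adjusted p = 0.454). Without corticosterone replicate 2 the value was 0.29 and passed (edgeR quasi-likelihood, adjusted p = 0.00612), and without corticosterone replicate 3 it was 0.086 (adjusted p = 0.831).

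Steap3 encodes the reductase that converts ferric to ferrous iron in the endosome, best known from erythroid precursors (chromosome 1, 120190757 to 120271082). Its levels were 25.9, 27.5 and 24.8 CPM in the controls and 33.6, 34.3 and 34.6 CPM in the treated libraries. Every treated library was above every control, and the treated libraries lay close together (34.2 ± 0.497 CPM, against 26.1 ± 1.35 CPM in controls; SD, n = 3). The log2 difference was 0.39 (SE 0.070; edgeR quasi-likelihood, adjusted p = 0.0255), and it stayed between 0.36 and 0.43 when each library was left out in turn. The call itself was lost without each library except corticosterone replicate 2, with adjusted p from 0.0860 (without corticosterone replicate 3) to 0.134 (without control replicate 3).

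Slc11a2, the divalent metal transporter DMT1 that moves ferrous iron across the endosomal membrane, lies on chromosome 15 (100387898 to 100424092). It had 32.7, 30.6 and 32.4 CPM in controls and 35.8, 34.0 and 39.6 CPM with corticosterone. The groups did not overlap, but treated replicate 2 was only just above the highest control. The log2 fold change of 0.19 (95% interval 0.01 to 0.37) did not pass (edgeR quasi-likelihood, adjusted p = 0.267), and 0.24 without corticosterone replicate 2 did (edgeR quasi-likelihood, adjusted p = 0.0417). A gene model on the opposite strand, Gm5475, overlaps Slc11a2 by 1946 bases and held at most 4 counts in a library.

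The ferritin chains were by far the most abundant of the 10 messages. Fth1, the heavy chain with the ferroxidase site (chromosome 19, 9980598 to 9985092), had 1604, 1649 and 1715 CPM in controls and 1926, 2248 and 1897 CPM in the treated libraries. All treated libraries were above all controls, and here treated replicate 2 was the highest. Its log2 fold change of 0.29 (SE 0.071, 95% interval 0.13 to 0.45) missed the threshold. It passed with DESeq2 (adjusted p = 0.00495), which called 1131 of 13955 genes (8.10%), against 2.82% in edgeR. At a value of 0.21 it also passed without corticosterone replicate 2 (edgeR quasi-likelihood, adjusted p = 0.00720).

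Ftl1, the light chain that promotes mineral growth in the shell (chromosome 7, 45457944 to 45459884), pointed the other way. It had 1865, 1899.7 and 2107 CPM in controls and 1490.4, 1913 and 1502 CPM in the treated libraries. Treated replicates 1 and 3 were below every control, while treated replicate 2 lay inside the control range. The log2 fold change of -0.26 (95% interval -0.49 to -0.03) did not pass (edgeR quasi-likelihood, adjusted p = 0.243). Without corticosterone replicate 2 it was -0.39 and passed (edgeR quasi-likelihood, adjusted p = 0.00201). Ftl1 has near-identical copies in the genome, and its counts are uncertain to the extent that reads were split among them: Ftl1-ps1, Ftl1-ps2 and Ftl2-ps together held 4.97 to 5.87% of the counts of Ftl1, with log2 fold changes of -0.22, -0.47 and -0.39, none of which passed. With their counts added to Ftl1 in an alternative chosen after seeing the data, the Fth1 to Ftl1 log2 difference stayed at 0.55. Gm10252 on the opposite strand overlaps Ftl1 by 416 bases and held at most 331 counts.

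Within each library, the chains were also compared with each other. The ratio of Fth1 to Ftl1 counts was 0.860, 0.868 and 0.814 in controls and 1.29, 1.18 and 1.26 in the treated libraries, so that heavy-chain reads were fewer than light-chain reads in all controls and more numerous in all treated libraries. A ratio of 2 genes in the same library does not depend on how libraries are scaled. In FPKM, the mean ratio went from 0.327 ± 0.0112 (SD, n = 3) to 0.480 ± 0.0235, which is 1.47-fold higher. In an exact permutation test over the 6 libraries, two-sided, p was 0.1, the smallest that 3 against 3 can give. The log2 difference of 0.55 lay between 0.52 and 0.59 when each library was left out in turn, the highest value being that without corticosterone replicate 2. The groups did not overlap in this ratio, and neither chain alone passed in edgeR. As p cannot be smaller with 3 against 3, the permutation test cannot decide whether the chains differed in their response. Such a ratio also does not tell which of the chains moved. Both chains together took up 0.347, 0.354 and 0.378% of library counts in controls and 0.345, 0.410 and 0.344% in the treated libraries (means of 0.360 ± 0.0163 and 0.366 ± 0.0376%; SD, n = 3), with a two-sided p of 1 by exact permutation. The groups overlapped, and the sign of the difference turned without control replicate 1 and without corticosterone replicate 2 (log2 difference of -0.0035 and -0.062, against 0.021).

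**Figure D2:**
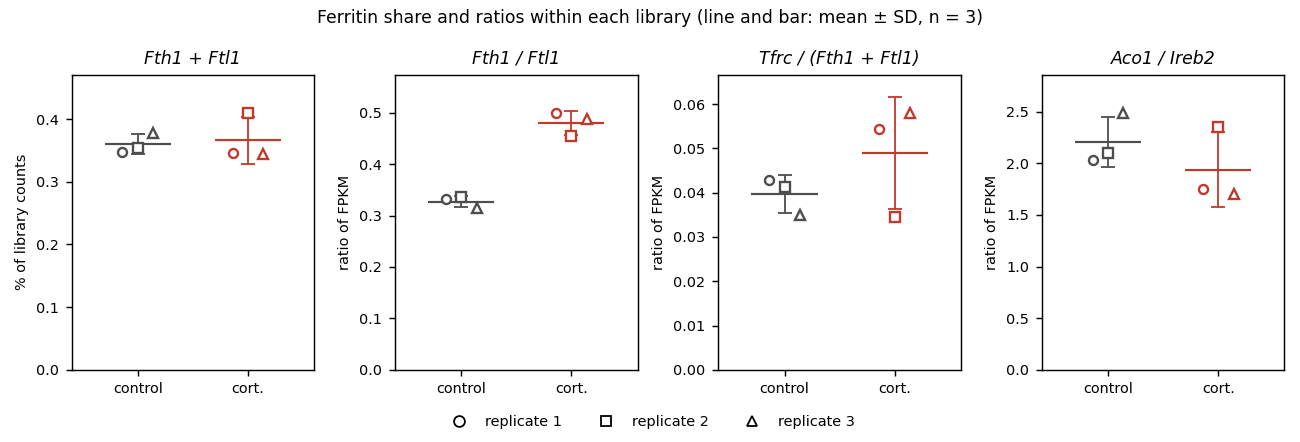
Share of library counts taken by both ferritin chains (%), and the FPKM ratios Fth1 to Ftl1, Tfrc to ferritin and Aco1 to Ireb2, in each library with the mean ± SD per group (n = 3), all axes from 0. The Fth1 to Ftl1 ratio lies at 0.314 to 0.335 in controls and 0.454 to 0.499 with corticosterone without overlap, whereas the groups overlap in the other panels.

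Ncoa4, the cargo receptor that delivers ferritin to the lysosome for iron release (chromosome 14, 32159865 to 32179855), had 53.6, 53.4 and 51.7 CPM in controls and 59.9, 49.3 and 67.0 CPM in the treated libraries. As for Tfrc, treated replicates 1 and 3 were above every control and treated replicate 2 was below every control. The log2 fold change was 0.15 (95% interval -0.09 to 0.39; edgeR quasi-likelihood, adjusted p = 0.511), and it depended on the treated library left out: 0.26 without corticosterone replicate 2 (edgeR quasi-likelihood, adjusted p = 0.0162) and 0.049 without corticosterone replicate 3 (adjusted p = 0.907). The ratio of Tfrc to ferritin, in FPKM, was 0.0429, 0.0414 and 0.0349 in controls and 0.0544, 0.0346 and 0.0580 in the treated libraries. Treated replicate 2 was the lowest of all 6 and the other treated libraries the highest (exact permutation test, two-sided p = 0.4). The log2 difference of 0.27 was 0.50 without that library, 0.13 without corticosterone replicate 3, 0.18 without corticosterone replicate 1 or control replicate 3, and 0.15 as a ratio of raw counts.

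Slc40a1 encodes ferroportin and lies on chromosome 1 (45908068 to 45926523). It was the least abundant of the 10, with 536, 480 and 521 counts in controls and 345, 281 and 344 counts in the treated libraries. In CPM these were 8.44, 7.35 and 7.98 in controls and 5.49, 4.31 and 5.26 with corticosterone. Every treated library was below every control, and treated replicate 2 was the lowest. Group means were 7.93 ± 0.545 and 5.02 ± 0.627 CPM (SD, n = 3), which differ by -0.66 on the log2 scale (SE 0.13, 95% interval -0.95 to -0.36; edgeR quasi-likelihood, adjusted p = 0.0365). Leaving out each library in turn gave values from -0.73 to -0.56, and the call was lost without each one but corticosterone replicate 2, with adjusted p from 0.0922 (without corticosterone replicate 3) to 0.149 (without control replicate 1).

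Macrophages are a known site of ferroportin, and their markers are given for that reason. The 7 macrophage markers summed to 115 to 118 CPM in controls and 101 to 107 CPM with corticosterone. None of the 5 tested ones passed in edgeR, the lowest adjusted p being 0.121 for Vcam1 (log2 fold change -0.22), which held most of the sum. Ptprc stood at 4.15 ± 0.728 and 4.21 ± 0.842 CPM and Csf1r at 7.98 ± 0.737 and 7.95 ± 1.26 CPM (SD, n = 3). Cd68 had a lower mean with corticosterone (31.8 ± 1.71 and 29.2 ± 3.03 CPM). Adgre1 had a higher one (2.19 ± 0.335 and 2.69 ± 0.900 CPM). Spic and Cd163, markers of macrophages that recycle red cells, were at 0 counts in 3 and 4 of the 6 libraries and at most at 6 counts. The part of such cells in the fall of Slc40a1 was not tested.

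Hmox1, which frees iron from heme (chromosome 8, 75093621 to 75100589), had 48.3, 47.1 and 55.1 CPM in controls and 62.5, 62.1 and 63.5 CPM in the treated libraries. The treated libraries lay close together (62.7 ± 0.740 CPM) above a wider spread of controls (50.2 ± 4.33 CPM; SD, n = 3), with control replicate 3 nearest. The log2 fold change of 0.32 (SE 0.072, 95% interval 0.16 to 0.49) missed the threshold in edgeR. It passed with DESeq2 (adjusted p = 0.00335), which called 8.10% of all genes it tested. At 0.33 it also passed without corticosterone replicate 2 (edgeR quasi-likelihood, adjusted p = 0.0129).

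The iron regulatory proteins did not pass. Aco1, which is a cytosolic aconitase when it holds an iron-sulfur cluster and an RNA-binding protein when it does not (chromosome 4, 40143081 to 40198338), had 82.6, 76.3 and 83.1 CPM in controls and 77.8, 78.9 and 84.7 CPM in the treated libraries. The groups overlapped almost fully, and the 95% interval of its log2 fold change reached from -0.15 to 0.14 (edgeR quasi-likelihood, adjusted p = 0.982). Ireb2, which is degraded when iron is plentiful (chromosome 9, 54863789 to 54912530), had 85.6, 76.7 and 70.5 CPM in controls and 93.7, 70.6 and 105 CPM in the treated libraries. Treated replicates 1 and 3 were above every control, and treated replicate 2 was level with the lowest control. The log2 fold change was 0.21 (95% interval -0.11 to 0.53; edgeR quasi-likelihood, adjusted p = 0.489), with 0.36 without corticosterone replicate 2 (edgeR quasi-likelihood, adjusted p = 0.0158) and 0.087 without corticosterone replicate 3 (adjusted p = 0.875). The ratio of Aco1 to Ireb2, in FPKM, was 2.21 ± 0.244 (SD, n = 3) among controls and 1.94 ± 0.364 among treated libraries, with overlap. An exact permutation test gave a two-sided p of 0.3. The log2 difference of -0.20 was -0.35 without corticosterone replicate 2 and -0.11 without either corticosterone replicate 3 or control replicate 3.

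Corticosterone replicate 2 moved many of these values. As it was singled out from these same data, the calls made without it are only descriptive. Without it, 9 of the 10 genes passed, 7 higher (Tfrc, Steap3, Slc11a2, Fth1, Ncoa4, Hmox1 and Ireb2) and 2 lower (Slc40a1 and Ftl1), with Aco1 the exception, against 20.5% of all genes tested in that fit. On the log2 scale relative to the control mean, this library was at -0.095 for Tfrc, -0.10 for Ncoa4, -0.13 for Ireb2 and -0.031 for Ftl1. The other treated libraries were at 0.24 and 0.33 for Tfrc, 0.18 and 0.34 for Ncoa4, 0.28 and 0.44 for Ireb2 and -0.39 and -0.38 for Ftl1. For Steap3 (0.37, 0.40 and 0.41) and Hmox1 (0.32, 0.31 and 0.34) all treated libraries were alike, and for Fth1 (0.44) and Slc40a1 (-0.88) replicate 2 was the farthest from the controls.

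**Figure D3:**
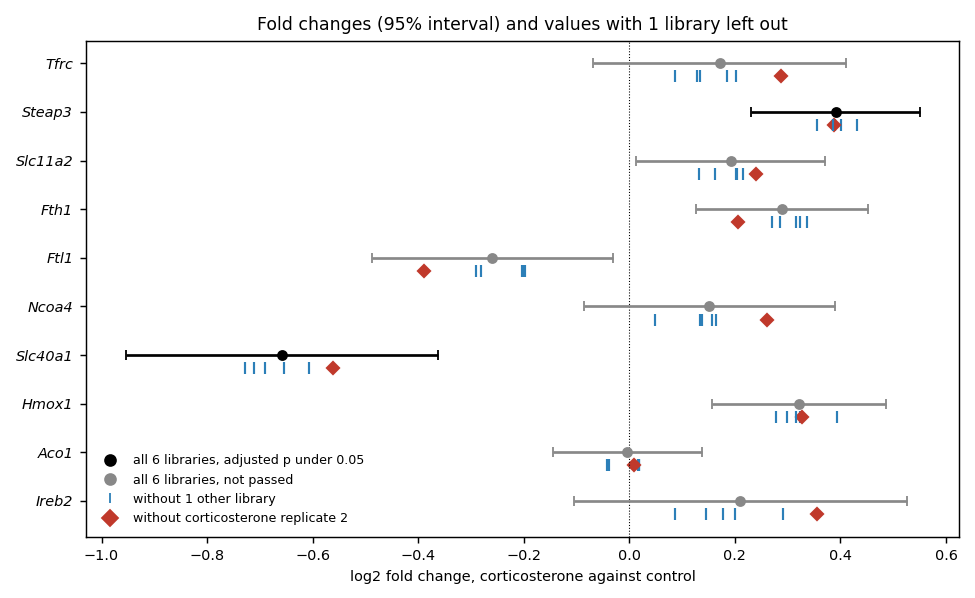
Log2 fold change of each gene with its 95% interval over all 6 libraries (black, adjusted p under 0.05; grey, not passed), and below it the value without corticosterone replicate 2 (red diamond) and without each of the other libraries (blue ticks). Without that library the value is farther from 0 for Tfrc, Ncoa4, Ireb2, Ftl1 and Slc11a2 and nearer to 0 for Fth1 and Slc40a1. It moves little for Hmox1 (0.322 to 0.328), Steap3 (0.391 to 0.387) and Aco1 (-0.0039 to 0.0092).

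By FPKM, the level per kilobase as deposited, the control order was Ftl1, Fth1, Tfrc, Hmox1, Aco1, Ireb2, Ncoa4, Slc11a2, Steap3 and Slc40a1. Their mean levels over all libraries ran from 1186 FPKM for Ftl1, rank 27 of 28154 genes, and 469.5 FPKM for Fth1, rank 81, down to 0.634 FPKM for Slc40a1, rank 12711. The ranges of neighbours in this order did not overlap in controls. With corticosterone, Slc11a2 (4.66 to 5.58 FPKM), Steap3 (5.23 to 5.42 FPKM) and Ncoa4 (4.59 to 6.41 FPKM) overlapped. The distance between the ferritin chains in FPKM depends on gene length: counts and FPKM together imply a length of about 3906 to 3923 bases for Fth1, whereas its principal transcript in GENCODE M21 has 929 bases, against 968 for Ftl1. Per kilobase of the principal transcript, Ftl1 stood at 2022 ± 135 and Fth1 at 1782 ± 60.4 CPM in controls, and at 1689 ± 248 and 2178 ± 209.9 CPM with corticosterone (SD, n = 3), so the order of their means differs between groups on that scale but not in FPKM. For Ncoa4 the implied length was about 10555 to 10598 bases, against 3343 for its principal transcript. Per kilobase of the latter, Ncoa4 (15.8 ± 0.315 CPM) stood above Ireb2 (13.4 ± 1.32 CPM) in controls, the reverse of their FPKM order. The control order was otherwise the same on both scales.

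Other genes of iron handling were taken from 8 lists with 88 genes, of which 85 were in the table and 80 were tested. With corticosterone 6 of them rose and 2 fell, against 1.35% and 1.46% of all tested genes, and 72 did not pass. Their median log2 fold change was -0.015, with 37 above 0 and 43 below. These lists, too, were chosen with earlier results of these data known. The genes that rose were Scara5, Erfe, Hspa9, Mafk, Slc7a11 and Slc3a2, and those that fell were Prom2 and Cp.

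Of 11 tested genes of iron uptake and reduction, Scara5 rose and 10 did not pass (list median 0.25). Scara5, a scavenger receptor that takes up ferritin in the mouse, had 67, 50 and 48 counts in controls and 203, 205 and 248 counts in the treated libraries. Every treated library was far above every control, at a low level: 0.852 ± 0.176 CPM went to 3.39 ± 0.354 CPM (SD, n = 3), or 1.99 on the log2 scale (SE 0.20; edgeR quasi-likelihood, adjusted p = 0.00285). The call held without each library in turn. Among the metal transporters and reductases, Slc39a14 (0.60), Steap1 (0.26) and Steap2 (0.25), named after their values were seen, did not pass in edgeR. DESeq2, with 8.10% of all genes called, called Slc39a14 and Steap1. The list's other transporters and reductases, likewise named after their values were seen, did not pass in edgeR either: Steap4 (0.91), Slc39a8 (0.072), Cybrd1 (0.0031) and Slc46a1 (-0.20).

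Of 10 tested genes of cytosolic handling and export, 2 fell and 8 did not pass (list median 0.016). Cp, the ferroxidase ceruloplasmin that works with ferroportin, stood at 109 ± 5.79 CPM in controls and 80.9 ± 7.08 CPM with corticosterone (SD, n = 3), a difference of -0.43 in log2 (SE 0.076; edgeR quasi-likelihood, adjusted p = 0.0243). Prom2, prominin-2, known in human cells for carrying ferritin out of the cell in vesicles, had 28.6, 27.2 and 25.1 CPM in controls and 18.8, 17.4 and 17.3 CPM in the treated libraries, a difference of -0.60 in log2 (SE 0.081; edgeR quasi-likelihood, adjusted p = 0.00851). Both genes were lower in every treated library than in any control. The call of Cp did not hold without any 1 of the controls or without corticosterone replicate 1 (edgeR quasi-likelihood, adjusted p up to 0.151), and that of Prom2 did not without control replicate 1 or control replicate 2 (edgeR quasi-likelihood, adjusted p up to 0.0804). Cp overlaps Hps3 on the opposite strand by 13201 bases, and Hps3 held 1171 to 1904 counts against at least 4768 for Cp.

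Of 4 tested genes of the hepcidin axis, Erfe, erythroferrone, a hormone known from erythroblasts that lowers hepcidin, went from 69.4 ± 3.69 to 87.2 ± 4.94 CPM (log2 fold change 0.33) and rose, and 3 did not pass (list median 0.049). Erfe overlaps Ilkap on the opposite strand by 357 bases, and Ilkap held 4123 to 5037 counts against 4279 to 5933 for Erfe. Of 19 genes of mitochondrial iron and iron-sulfur clusters, Hspa9, the mitochondrial chaperone mortalin, rose from 554 ± 8.08 to 658 ± 22.2 CPM (0.25) and 18 did not pass (list median -0.0031). Of 7 regulators of Hmox1 and ferritin, Mafk, a small MAF partner of NRF2 and BACH1, rose from a mean of 48.0 to one of 60.5 CPM (0.33) and 6 did not pass (list median 0.15). Mafk overlaps Tmem184a on the opposite strand by 169 bases, and Tmem184a held 1167 to 1446 counts against 2982 to 4187 for Mafk. The calls of Erfe, Hspa9 and Mafk were each lost without any 1 of the controls and without corticosterone replicate 1, and those of Hspa9 and Mafk also without corticosterone replicate 3 (edgeR quasi-likelihood, adjusted p up to 0.219).

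Of 6 genes in the list of ferroptosis defence, the 2 chains of the cystine importer rose and 4 did not pass (list median -0.074). The list also holds Acsl4 and Lpcat3, which are not defence genes, so its median mixes genes of different roles. Slc7a11, the transport chain, went from 29.4 ± 1.73 to 48.4 ± 7.85 CPM (log2 fold change 0.72, SE 0.12; edgeR quasi-likelihood, adjusted p = 0.0188), and Slc3a2, its heavy chain, from 262 ± 20.3 to 374 ± 31.5 CPM (0.51, SE 0.079). The groups did not overlap for either gene. The call of Slc7a11 did not hold without any 1 of the controls or without corticosterone replicate 1 (edgeR quasi-likelihood, adjusted p up to 0.119), and that of Slc3a2 did not without control replicate 1, control replicate 2 or corticosterone replicate 1 (edgeR quasi-likelihood, adjusted p up to 0.111). Gpx4, the lipid peroxidase that guards against iron-dependent death, stood at -0.17 in log2 and did not pass (named after its value was seen).

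None of 14 genes of heme synthesis, transport and degradation passed in edgeR (list median -0.074, 2 at an unadjusted p under 0.05). DESeq2, with 8.10% of all genes called, called Cpox. Cpox, coproporphyrinogen oxidase, had 42.4, 36.4 and 37.0 CPM in controls and 59.4, 46.1 and 74.5 CPM in the treated libraries (log2 fold change 0.64; edgeR quasi-likelihood, adjusted p = 0.0793), and Blvra, biliverdin reductase A, had a log2 fold change of -0.25. None of 9 genes of cytosolic iron-sulfur assembly passed in edgeR (list median -0.038, 0 at an unadjusted p under 0.05) or in DESeq2, the lowest p being those of Ciao1 (-0.20) and Nubp2 (0.15).

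**Figure D4:**
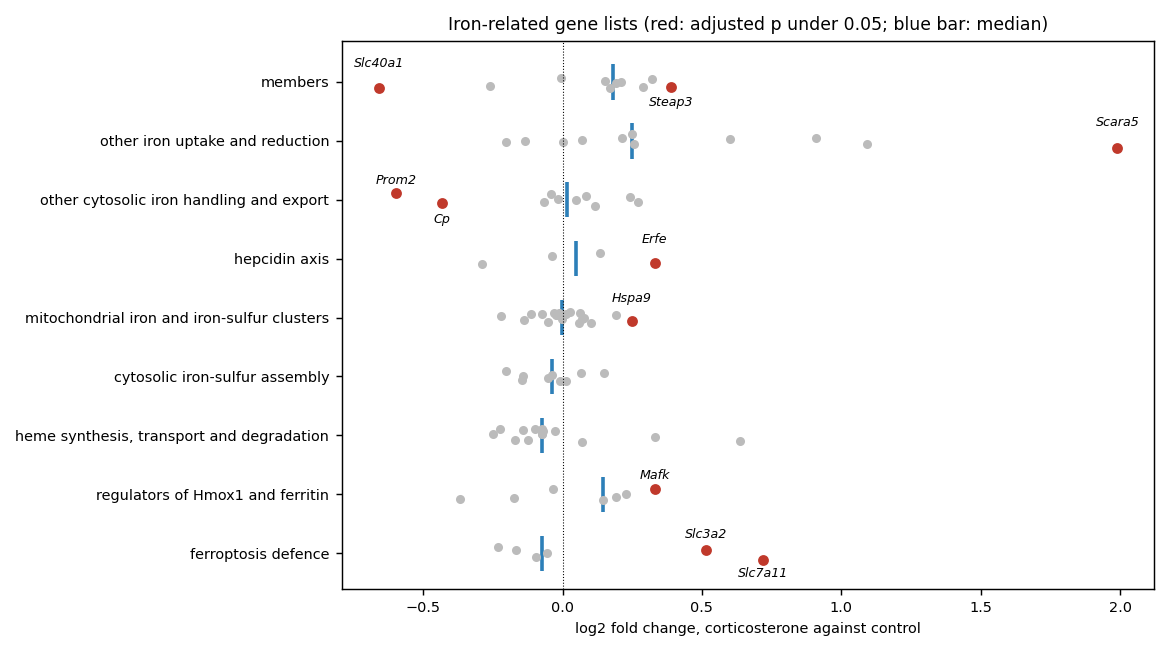
Log2 fold change of every tested gene in the 10 members and the 8 other iron lists, with genes of adjusted p under 0.05 in red and named, the others in grey, and the list median as a blue bar. Scara5 at 1.99 stands apart from all others.

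The genes whose levels ran most like those of the called members over the 6 libraries were listed as a description, since libraries of the same 2 groups are shared by every such pair. For Slc40a1, among 10780 genes with a mean of at least 5 CPM, these were Rnf145, Cxcl5 and Sfxn5 (Pearson r of log2 CPM 0.994, 0.994 and 0.993). Cxcl5, a neutrophil chemokine, also fell, from 42.0 ± 4.39 to 20.9 ± 2.56 CPM (SD, n = 3), while Rnf145 (log2 fold change -0.20) and Sfxn5 (-0.31) did not pass. For Steap3 they were Dph2, Rbbp5 and Btg2 (r of 0.999, 0.991 and 0.990), with log2 fold changes of 0.35, 0.10 and 0.33, none of which passed.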

How the data were processed

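RNA sequencing of 6 libraries of 4T1 cells was analysed from a deposited gene table. The labels' treatment gave each library's group and its title the replicate number. The deposited counts are whole numbers per gene and library, not normalized, per the file headers. The table also holds FPKM that the authors computed, per the file headers. For the aligner, the counter, strand use and read layout, the labels and headers state nothing. The submitters' processing notes name GRCh38, but the gene identifiers are mouse: 28086 of 28154 were found in GENCODE M21 (GRCm38), 90.4% of them with identical coordinates, and gene coordinates are those of the deposited table.

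Counts were filtered with filterByExpr (minimum count 10, minimum total 15), scaled by TMM and tested by quasi-likelihood over all 17283 genes (edgeR 4.0.16 under R 4.3.3; the model held only the group), with Benjamini-Hochberg adjustment and a threshold of 0.05. The biological coefficient of variation was 0.135. The fit was tested on simulated data. Library ratios were compared by exact permutation. Alternatives were DESeq2 1.42.0, its size factors in edgeR, no filter, a mean FPKM of at least 5, limma 3.58.1 on log2(FPKM + 1) or log2(FPKM + 0.1) for genes reaching 1 FPKM in 3 libraries, limma without that filter, the replicate block and each library left out.

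All 10 members are named. Of each wider list the genes that passed are named, or else the 2 of lowest p (genes outside this rule are marked where they appear), and for called members the 3 genes of highest correlation. Members and lists were chosen with earlier results of these data known. Of the lists, Tf was matched as Trf, and Ftmt, Hephl1 and Hamp had no row. The number of libraries and the total counts set the precision.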

Additional observations from a re-analysis of the deposited data

How the results depend on the processing

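Against 2 of the 10 genes, DESeq2 called 4 (Fth1, Hmox1, Slc40a1 and Steap3), and 0 were called with no low count filter, with limma without a filter and with the replicate block. A mean FPKM of at least 5 removed Slc40a1, Steap3 and Slc11a2 from the test and called Fth1 and Hmox1. Limma on log2(FPKM + 1), which does not test Slc40a1, called Hmox1 and Steap3. The share of all tested genes called moved too, from 2.82% to 8.10% with DESeq2 and 0.749% with no low count filter. It was 0.923% in limma without a filter and 4.26% with it, 1.37% with the replicate block and 5.82% at a mean FPKM of at least 5. Leaving out 1 library gave 0 to 9 calls, 9 being without corticosterone replicate 2 and 0 without any of the others. In those others calls over all genes also fell, from 487 to between 88 and 239, in fits with fewer samples. Of the wider genes, 8 of 80 tested were called, against 11 of 76 with DESeq2 and 7 of 72 in limma with its filter. With no filter, 2 of 85 were called in edgeR and 2 of 85 in limma. A mean FPKM of at least 5 gave 5 calls among 53 and the replicate block 4 among 80. These counts stand beside the shares of all tested genes given above for the same fits. With 1 library left out there were 1 to 27. The 27, of 82 tested, were without corticosterone replicate 2, where 20.5% of all tested genes passed. Libraries of the same number did not deviate together (Pearson r of 0.011, 0.038 and -0.088), so the numbers were not taken as pairs. Aco1, near 0 in the fit as reported (-0.0039), turned positive with DESeq2 (0.00018), at a mean FPKM of at least 5 (0.0043) and in limma (0.0018 with and without a filter, 0.0019 with the smaller pseudocount), and lay between -0.043 and 0.019 with 1 library left out. The other 9 genes kept their direction under every alternative run. The 3 libraries per group limit what can be told apart: the 95% interval of Tfrc spans 0.954-fold to 1.33-fold.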
